A study of Mus musculus with 60 samples.

Results

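The cornified envelope is the protein shell that replaces the plasma membrane of the outermost cells of skin and other stratified epithelia. The genes described are 8 mouse genes of this shell: Sprr1a, Sprr1b, Sprr3 and Ivl, which encode precursor proteins, Tgm1, which encodes a crosslinking enzyme, and Sbsn, Krtdap and Cnfn, which encode proteins of the differentiating layers. They were taken by symbol from both deposited count tables. All 8 were found, among 56980 gene identifiers in each table.

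RNA was sequenced from cultured mouse fibroblasts, cells of the connective tissue, which build no cornified envelope. The reprogramming table held 36 libraries of tail tip fibroblasts that carry a doxycycline-inducible cassette of the factors Oct4, Sox2, Klf4 and Myc. The cells named D/KO carried the genotype 4FJ_ERCC1_(d/-) and came from male mice of 8 weeks. Ercc1 encodes a subunit of a DNA repair nuclease. The cells named WT carried 4FJ_(+/-)_OCT4-GFP and came from female mice of 22 weeks. Samples were taken on day 0, day 2 and day 4 of induction (doxycycline, 2 µg/ml), in plain medium or in medium with VC, which is ascorbic acid (50 µg/ml) with the GSK3 inhibitor CHIR (3 µM), giving 12 groups of 3 libraries. Genotype, sex, age and strain background changed together between D/KO and WT cells, so their effects cannot be told apart. The inhibitor table held 24 libraries in 8 groups of 3. These were Ercc1 (d/-) tail tip cells of female mice of 4 weeks without the factor cassette, left as controls or given Repsox, Vactosertib, A83-01 or DMH-1, control WT (+/+) tail tip cells and WT skin cells of female mice of 14 weeks, and cells of the 4FJ_(+/-)_OCT4-GFP line from female mice of 22 weeks whose treatment label reads TGFB. The labels do not say whether the 3 libraries of a group came from separate cultures or animals, so p-values measure the spread between libraries only.

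As background, keratinocytes that leave the basal layer first make involucrin (Ivl) and the small proline-rich proteins of the Sprr family, which line the inner face of the plasma membrane. Transglutaminase 1 (Tgm1), anchored in that membrane, then joins them by isopeptide bonds and attaches ceramides to the finished shell. Suprabasin (Sbsn) and the keratinocyte differentiation-associated protein (Krtdap) are secreted proteins of the suprabasal layers, and cornifelin (Cnfn) is an envelope component of the uppermost layers.

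Involucrin and the 3 Sprr members lie together on the minus strand of chromosome 3 in GRCm39, in the epidermal differentiation complex, within 136927 bases that also hold Sprr4 and Sprr5. Sprr1b was annotated at positions 92344116 to 92346096, Sprr3 at 92363809 to 92366027, Sprr1a at 92391259 to 92393202 and Ivl at 92478209 to 92481042, each with 2 exon blocks. Sbsn (30450896 to 30455559) and Krtdap (30487321 to 30490522) lie on the plus strand of chromosome 7, with Dmkn between them, within 39627 bases. Cnfn lies on the minus strand of the same chromosome, at 25067045 to 25069149, and Tgm1, with 17 exon blocks, on the minus strand of chromosome 14, at 55937466 to 55951383. Exons of Tgm1 overlap the antisense gene Gm49067, which had at most 6 counts in any library, and exons of Sbsn overlap Tmem147os, with at most 55 counts. Sprr1a and Sprr1b are close paralogs, so reads could be divided between them or lost.

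The 250 bases before the start of 1 annotated transcript of each of 7 members are shown, read from GRCm39 on the strand of the gene, 5′ to 3′, because they show which sequence elements the genes that rose share with those that stayed near 0. Capitals mark AP-1 sites (TGANTCA), the TATA box (TATAAA) and KLF sites (GGGNGNGGC), searched on both strands.
Sprr3: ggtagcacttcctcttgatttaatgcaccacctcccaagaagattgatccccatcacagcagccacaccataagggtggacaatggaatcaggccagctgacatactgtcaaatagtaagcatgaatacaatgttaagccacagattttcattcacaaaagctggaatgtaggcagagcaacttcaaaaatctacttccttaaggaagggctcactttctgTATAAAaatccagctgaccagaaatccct
Tgm1: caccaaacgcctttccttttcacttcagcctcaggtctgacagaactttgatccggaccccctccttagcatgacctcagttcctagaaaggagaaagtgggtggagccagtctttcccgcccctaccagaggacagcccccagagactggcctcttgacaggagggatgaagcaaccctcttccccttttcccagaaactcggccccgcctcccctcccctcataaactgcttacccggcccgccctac
Sbsn: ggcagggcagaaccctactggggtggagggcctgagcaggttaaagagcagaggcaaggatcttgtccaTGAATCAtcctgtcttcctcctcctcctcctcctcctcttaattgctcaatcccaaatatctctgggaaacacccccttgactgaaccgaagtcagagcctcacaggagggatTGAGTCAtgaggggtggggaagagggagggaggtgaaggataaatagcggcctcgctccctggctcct
Krtdap: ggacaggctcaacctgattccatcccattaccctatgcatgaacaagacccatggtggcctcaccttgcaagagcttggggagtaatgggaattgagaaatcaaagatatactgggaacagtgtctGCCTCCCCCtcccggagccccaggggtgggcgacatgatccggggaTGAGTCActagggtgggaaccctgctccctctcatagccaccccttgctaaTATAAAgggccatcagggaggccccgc
Cnfn: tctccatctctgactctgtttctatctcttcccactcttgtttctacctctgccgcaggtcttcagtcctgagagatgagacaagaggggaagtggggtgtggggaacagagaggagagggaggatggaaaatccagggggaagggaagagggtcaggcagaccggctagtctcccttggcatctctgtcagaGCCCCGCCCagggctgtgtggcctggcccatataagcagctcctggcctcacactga
Sprr1a: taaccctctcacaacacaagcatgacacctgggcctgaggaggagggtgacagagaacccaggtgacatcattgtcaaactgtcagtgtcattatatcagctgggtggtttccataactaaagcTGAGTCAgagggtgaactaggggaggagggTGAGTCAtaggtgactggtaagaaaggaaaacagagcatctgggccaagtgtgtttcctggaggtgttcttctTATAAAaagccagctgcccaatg
Ivl: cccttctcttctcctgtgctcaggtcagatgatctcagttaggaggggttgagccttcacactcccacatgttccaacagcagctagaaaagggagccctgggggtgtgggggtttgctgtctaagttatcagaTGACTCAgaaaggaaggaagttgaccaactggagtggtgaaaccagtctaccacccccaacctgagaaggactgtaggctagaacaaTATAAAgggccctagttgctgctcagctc
These windows are, in the same order, chr3:92366032-92366281, chr14:55950953-55951202, chr7:30450708-30450957, chr7:30487077-30487326, chr7:25069150-25069399, chr3:92393209-92393458 and chr3:92481043-92481292. An AP-1 match was found in 5 of the 8 members (Sprr1a, Sprr1b, Ivl, Sbsn and Krtdap), against 6.19% of 21618 promoter windows of the same length. A TATA box was found in 5 (Sprr1a, Sprr1b, Sprr3, Ivl and Krtdap), against 11.95%, and a KLF match in Krtdap and Cnfn, against 24.86%. No member held a grainyhead-type match (AACCNGTT, 1.78% of windows) or an octamer (ATGCAAAT, 1.5%). The Tgm1 window held none of the 5 motifs, and Sprr1a and Ivl held AP-1 and TATA matches, as Krtdap did. That Tgm1 window lies inside the gene as annotated, so the bases before the outermost start of Tgm1 were not searched. A match describes the letters and not binding.

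Library totals were 16538374 to 18484951 counts in the reprogramming table and 17102639 to 30599138 in the inhibitor table. All 36 reprogramming libraries correlated best with their own group. In the inhibitor table the 3 Repsox libraries correlated better with another group than with each other, and WT skin replicate 1 stood apart from the other skin libraries (Pearson r of log2 CPM 0.9494 and 0.9515, against 0.989 between those). Ercc1, the gene altered in the D/KO cells, had 152 to 316 counts across the 18 libraries of D/KO cells and 283 to 567 across the 18 of WT cells, so its transcript was not absent. Pou5f1 (Oct4) had 8 to 49 counts in the 12 day 0 libraries and 244 to 2832 in the 24 libraries of days 2 and 4. All 8 fibroblast markers were detected in every group. Of the keratinocyte markers, Krt5 had at most 12 counts in any library of either table. Endothelial markers summed to 180 to 599 CPM (counts scaled to a common library total) in D/KO libraries and 4.67 to 116 in WT libraries of the reprogramming table, and Cdh5 had at most 13 counts in the latter.

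**Figure D1:**
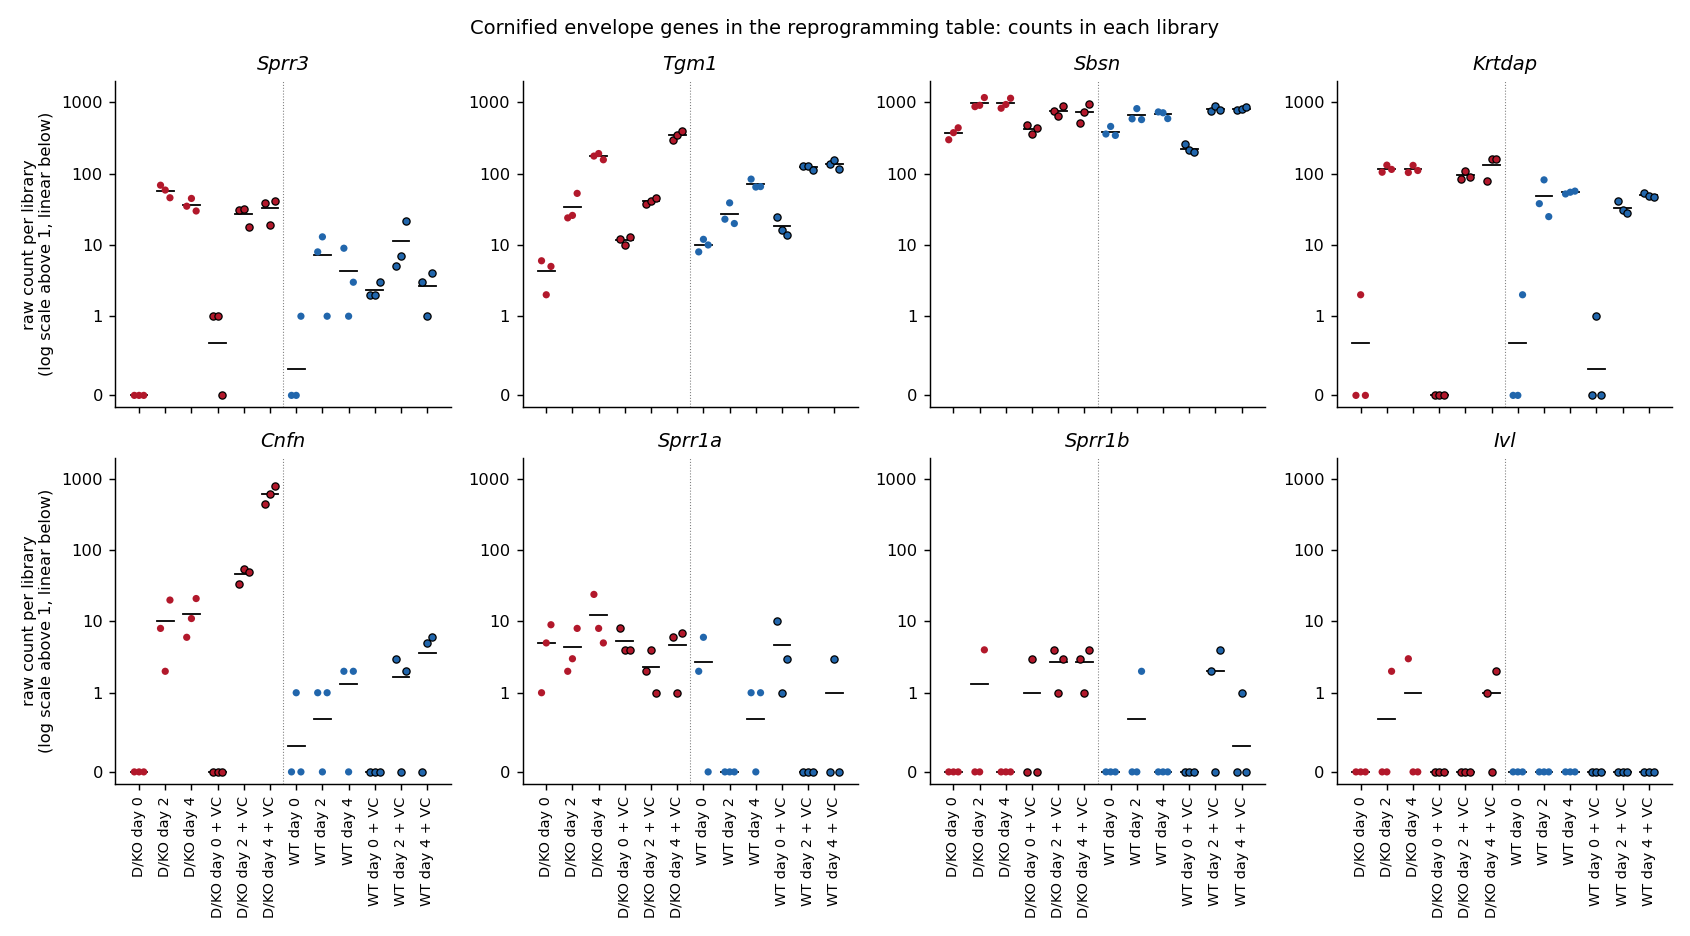
Raw counts of the 8 genes in each of the 36 reprogramming libraries, on an axis that is logarithmic above 1 count and linear below. Each point is a library (red for D/KO, blue for WT, black rim for VC) and each bar the mean of 3. Sprr3, Krtdap and Cnfn go from at most 3 counts at day 0 to as many as 69, 161 and 785 at days 2 and 4, and Sprr1a, Sprr1b and Ivl stay at or below 24.

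Doxycycline was followed by higher counts of 5 of the 8 genes in D/KO cells, namely Sprr3, Tgm1, Sbsn, Krtdap and Cnfn, and of 4 at a time in WT cells. In the 12 day 0 libraries together Sprr3 had 10 counts, Krtdap 5 and Cnfn 1, so these transcripts were close to absent before induction, whereas Tgm1 had 133 and Sbsn 4250. In edgeR's quasi-likelihood test at an adjusted p under 0.05, 5 of 8 members were higher than at day 0 of the same arm in each of the 4 D/KO comparisons. Of all genes tested 14.3% were higher at day 2 and 18.3% at day 4, and in VC medium the shares were 23.8% for day 2 and 27.9% for day 4. In WT cells 4 of 8 were higher in each comparison, against 6.26%, 11.7%, 13.8% and 22.7% of all genes. None was lower by edgeR (of all genes, in the same order, 13.2%, 18.7%, 23.6% and 26.2% in D/KO and 4.3%, 12.8%, 13.7% and 22.0% in WT cells were), none at an unadjusted p under 0.05, and DESeq2 called 1 lower, Sprr1a at WT day 2 plus VC, which edgeR without the filter also called (0 counts against 14 at day 0 plus VC). The other 3 members did not pass the filter on low counts in this table and Sprr3, Krtdap and Cnfn passed it through the groups in which they were high, so these counts describe the members and are no independent support. Days 2 and 4 of an arm share their 3 day 0 libraries. In bulk RNA a change in the number of cells that make a transcript and a change in RNA per cell cannot be told apart.

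Among the precursors only Sprr3 passed the filter in the reprogramming table. In D/KO cells it had 0, 0 and 0 counts at day 0, 69, 59 and 46 at day 2 and 35, 45 and 30 at day 4. These 6 induced libraries all lay above the 3 day 0 libraries, which makes Sprr3 at least 54.2-fold higher at day 2 and at least 32.4-fold higher at day 4, measured against a floor of 3 counts over the group (adjusted p = 5.32e-08 and 3.72e-07). With VC, D/KO cells had 1, 1 and 0 counts at day 0, 31, 32 and 18 at day 2 and 39, 19 and 42 at day 4. The ratio of day 4 to day 0 in that arm was 38.5, with a 95% exact counting interval from 10.4 to 322 because the day 0 group held 2 counts.

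After induction Sprr3 was lower in WT than in D/KO cells, except that at day 2 plus VC the difference did not pass. WT cells had 0, 0 and 1 counts at day 0, 8, 13 and 1 at day 2 and 9, 1 and 3 at day 4, and with VC 2, 2 and 3, then 5, 7 and 22, then 3, 1 and 4. Most WT libraries thus held fewer than 10 counts, and single libraries decided the calls. Day 2 plus VC was higher than day 0 plus VC (log2 fold change 2.13 ± 0.75 SE, adjusted p = 0.0309), but the call was lost without the day 2 library of 22 counts (replicate 3, value 1.19) or any 1 of the 3 day 0 libraries (2.01 to 2.37). Day 4 plus VC lay below day 2 plus VC (-2.13 ± 0.73, adjusted p = 0.0354, against 10.1% of all genes lower), a call also lost without that library (-1.19) or any 1 of the 3 day 4 libraries (-1.75 to -2.5). The calls at day 2 and day 4 without VC (adjusted p = 0.0115 and 0.0379) were lost without day 0 replicate 1 or 2 (adjusted p from 0.0552 to 0.063 at day 2 and from 0.117 to 0.131 at day 4), without day 2 replicate 2 (0.103) and without day 4 replicate 1 (0.283). D/KO cells exceeded WT cells by 8.36-fold at day 2 (log2 3.06 ± 0.58, adjusted p = 6.01e-05), 8.33-fold on day 4 (3.06 ± 0.63, adjusted p = 0.00014) and, in VC medium, 11.5-fold on day 4 (3.53 ± 0.67, adjusted p = 4.76e-05). At day 2 plus VC the 2.31-fold difference did not pass (adjusted p = 0.0863), and without WT replicate 3 of 22 counts it did (log2 2.15, adjusted p = 0.0104).

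The remaining precursors stayed near the floor. Sprr1a had 0 to 24 counts in the 36 libraries, with its highest value in 1 D/KO library of day 4, and 53 counts over the 12 day 0 libraries. Sprr1b had at most 4 counts and was at 0 in 24 of 36 libraries. Involucrin had at most 3 counts, and was at 0 in 32 libraries and in all 18 WT libraries. These 3 genes could not be tested after the filter, and for Sprr1b and Ivl no change was detectable at this depth. With edgeR run without the filter Sprr1a was higher in D/KO than in WT cells at day 2 (13 counts against 0 over the 3 libraries, adjusted p = 0.0116) and day 4 (37 against 2, adjusted p = 0.00564).

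Tgm1, the enzyme that joins the precursors, was present in every reprogramming library and was higher after day 0 in every arm. In D/KO cells it had 6, 2 and 5 counts at day 0, 24, 26 and 53 at day 2 and 177, 192 and 157 at day 4. With VC the counts were 12, 10 and 13, then 38, 42 and 46, then 294, 352 and 401. None of these successive groups overlapped. In D/KO cells Tgm1 was 34.7-fold higher at day 4 than at day 0 (log2 5.12 ± 0.32 SE, adjusted p = 1.69e-15) and 22.8-fold higher with VC (4.51 ± 0.27, adjusted p = 2.25e-16). It was the only member called higher at day 4 than at day 2 without VC, by 4.83-fold in D/KO cells (adjusted p = 1.2e-08, 1 of 8 members, 4.5% of all genes) and by 2.6-fold in WT cells (adjusted p = 0.000274, 1 of 8 members, 9.25% of all genes).

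In WT cells Tgm1 rose with a different timing under VC. It had 8, 12 and 10 counts at day 0, 23, 39 and 20 at day 2 and 84, 65 and 66 at day 4 without VC, a 7.05-fold rise by day 4 (2.82 ± 0.29, adjusted p = 2.17e-09). With VC it had 25, 16 and 14, then 127, 128 and 114, then 136, 157 and 118. The day 2 libraries with VC already overlapped those of day 4, and the step between them was 0.07 ± 0.21 on the log2 scale (adjusted p = 0.852), while the same step in D/KO cells with VC was 2.95 ± 0.23 (adjusted p = 6.7e-12). At day 2 plus VC Tgm1 was lower in D/KO than in WT cells (-1.58 ± 0.23, adjusted p = 1.15e-06), and at day 4 plus VC it was higher (1.3 ± 0.21, adjusted p = 3.14e-06). The rise to day 4 was larger in D/KO than in WT cells by 2.3 ± 0.5 without VC (adjusted p = 0.00113, 1 of 8 members, 7.27% of all genes higher) and by 1.81 ± 0.39 with VC (adjusted p = 0.000582).

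VC alone was also followed by more Tgm1 at day 0, before doxycycline. D/KO libraries held 2 to 6 counts without and 10 to 13 with VC (log2 1.6 ± 0.43, adjusted p = 0.00504), and WT libraries 8 to 12 and 14 to 25 (1.12 ± 0.34, adjusted p = 0.012). The WT call was lost without replicate 1 of either group (log2 1 without the plain-medium library and 0.83 without the VC library). With VC at day 4 Tgm1 was 2-fold higher in both D/KO (1 ± 0.21, adjusted p = 0.000223) and WT cells (1 ± 0.22, adjusted p = 0.000816). At day 2 VC was followed by a 4.97-fold difference in WT cells (2.31 ± 0.25, adjusted p = 5.69e-09) and by 1.25-fold in D/KO cells, which did not pass (adjusted p = 0.393).

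The secreted members behaved unlike each other at day 0. Krtdap went from at most 2 counts to 25 or more. D/KO cells had 0, 2 and 0 counts at day 0, 105, 132 and 115 at day 2 and 104, 131 and 111 at day 4, and with VC 0, 0 and 0, then 84, 110 and 90, then 78, 159 and 161. WT cells had 0, 0 and 2, then 38, 82 and 25, then 52, 55 and 57, and with VC 0, 1 and 0, then 41, 31 and 28, then 53, 49 and 47. Every induced library lay above every day 0 library in both lines.

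The size of the Krtdap rise is bounded by those few day 0 counts. In D/KO cells it was in VC medium at least 78.2-fold by day 2 and at least 102-fold by day 4, and without VC the ratio to day 0 was 165 (counting interval 45.2 to 1360) at day 2 and 153 (42 to 1270) at day 4. In WT cells the ratio was 72.6 (19.7 to 606) at day 2 and 81.7 (22.3 to 680) at day 4, and with VC 92.6 (16.2 to 3690) and 130 (23 to 5170). None of the 4 comparisons of Krtdap at day 4 with day 2 passed, with log2 differences from -0.11 to 0.49. VC made no difference that passed at any day, with log2 values from -0.38 to 0.21 at days 2 and 4. D/KO cells exceeded WT cells at both days in both media, by 2.12-fold to 2.77-fold (adjusted p from 0.000562 to 0.00535). The difference between the lines in the change from day 0 did not pass (0.93 to 3.46 on the log2 scale, SE 1.73 to 2.46), with 0 to 2 counts in each day 0 library.

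Sbsn differed from the other members in being well expressed before induction, at 200 to 485 counts in the day 0 libraries. In D/KO cells without VC it had 300, 377 and 441 counts at day 0, 874, 912 and 1173 at day 2 and 831, 937 and 1146 at day 4, a 2.48-fold and 2.31-fold rise (log2 1.31 ± 0.16 and 1.21 ± 0.16). WT cells had 361, 461 and 345, then 589, 820 and 575, then 737, 717 and 594, a rise of 1.69-fold and 1.74-fold. The induced libraries lay above the day 0 libraries in both. With VC the larger rise was in WT cells. These had 263, 213 and 200 counts on day 0 and 774, 818 and 854 on day 4 in VC medium (3.16-fold), against 485, 364 and 440 and then 512, 734 and 952 in D/KO cells (1.32-fold, adjusted p = 0.0387). That last call was lost without any 1 of the 3 day 0 libraries or day 4 replicate 2 or 3 (0.19 to 0.43), and its groups overlapped by CPM. The change was smaller in D/KO than in WT cells by 1.16 ± 0.23 under VC at day 2 (adjusted p = 0.000533, 1 of 8 members lower, 7.0% of all genes) and by 1.26 ± 0.23 under VC at day 4 (adjusted p = 8.14e-05). At day 0 plus VC, Sbsn was 2.09-fold higher in D/KO than in WT cells (adjusted p = 1.11e-05, 1 of 8 members, 9.75% of all genes). Without VC it was higher in D/KO cells at day 2 (0.66 ± 0.16, adjusted p = 0.000979) and day 4 (0.52 ± 0.16, adjusted p = 0.00678), the latter lost without D/KO replicate 3 (0.39).

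Dmkn, the gene between Sbsn and Krtdap, encodes dermokine, another secreted protein of the suprabasal layers. It had 0 to 3 counts in the 6 D/KO day 0 libraries and 19 to 147 in the 12 induced D/KO libraries. In WT cells in VC medium its level was 3.47 ± 0.691 CPM on day 2 and 0.561 ± 0.257 CPM on day 4 (mean ± SD, n = 3). On chromosome 3, Sprr4, which lies in the same interval as the Sprr members and Ivl, was at 0 in all 36 reprogramming libraries.

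Cnfn went from 0 to the highest level per kilobase among the members. Its D/KO libraries held 0, 0 and 0 counts at day 0, 8, 2 and 20 at day 2 and 6, 11 and 21 at day 4. With VC they held 0, 0 and 0, then 34, 55 and 50, then 446, 623 and 785. All 18 WT libraries held 0 to 6. The 3 D/KO libraries of day 4 plus VC stood above every other library, followed by the 3 of day 2 plus VC, with no overlap between these 2 groups and the rest.

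Cnfn was at least 476-fold higher at D/KO day 4 plus VC than at day 0 in the same medium, and at least 38.3-fold higher by day 2 in that medium, against at least 11.2-fold at day 4 without VC. Between day 2 and day 4 with VC it rose 12.4-fold (log2 3.63 ± 0.39, adjusted p = 4.35e-08), which with Tgm1 made 2 of 8 members, against 7.76% of all genes. No member fell between these days in D/KO cells (5.07% of all genes without and 7.84% with VC did) by edgeR, at an unadjusted p under 0.05 or by DESeq2, and none rose in WT cells with VC (9.95% did). Adding VC at day 4 went with 48.5-fold more Cnfn in D/KO cells (5.6 ± 0.46, adjusted p = 6.53e-11) and at day 2 with 4.7-fold more (2.23 ± 0.49, adjusted p = 0.00093). D/KO cells held 158-fold more than WT cells at day 4 plus VC (7.3 ± 0.54, adjusted p = 1.52e-12), and 15.9 times the WT counts at day 2 without VC (counting interval 4.04 to 137), a call lost without D/KO replicate 3 (adjusted p = 0.0585). The day 4 plus VC levels were 33.2 ± 8.98 CPM against 0.199 ± 0.174 CPM (SD, n = 3). In WT cells the call at day 4 plus VC rested on 11 counts in all (adjusted p = 0.0311), at least 3.2-fold, and was lost without any 1 of the day 0 libraries or day 4 replicate 2 or 3 (adjusted p from 0.0706 to 0.0973). For the difference between the lines in the change from day 0 plus VC to day 4 plus VC, edgeR did not call Cnfn and DESeq2 called it higher, and with 0 counts in both day 0 groups its size has no estimate.

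**Figure D2:**
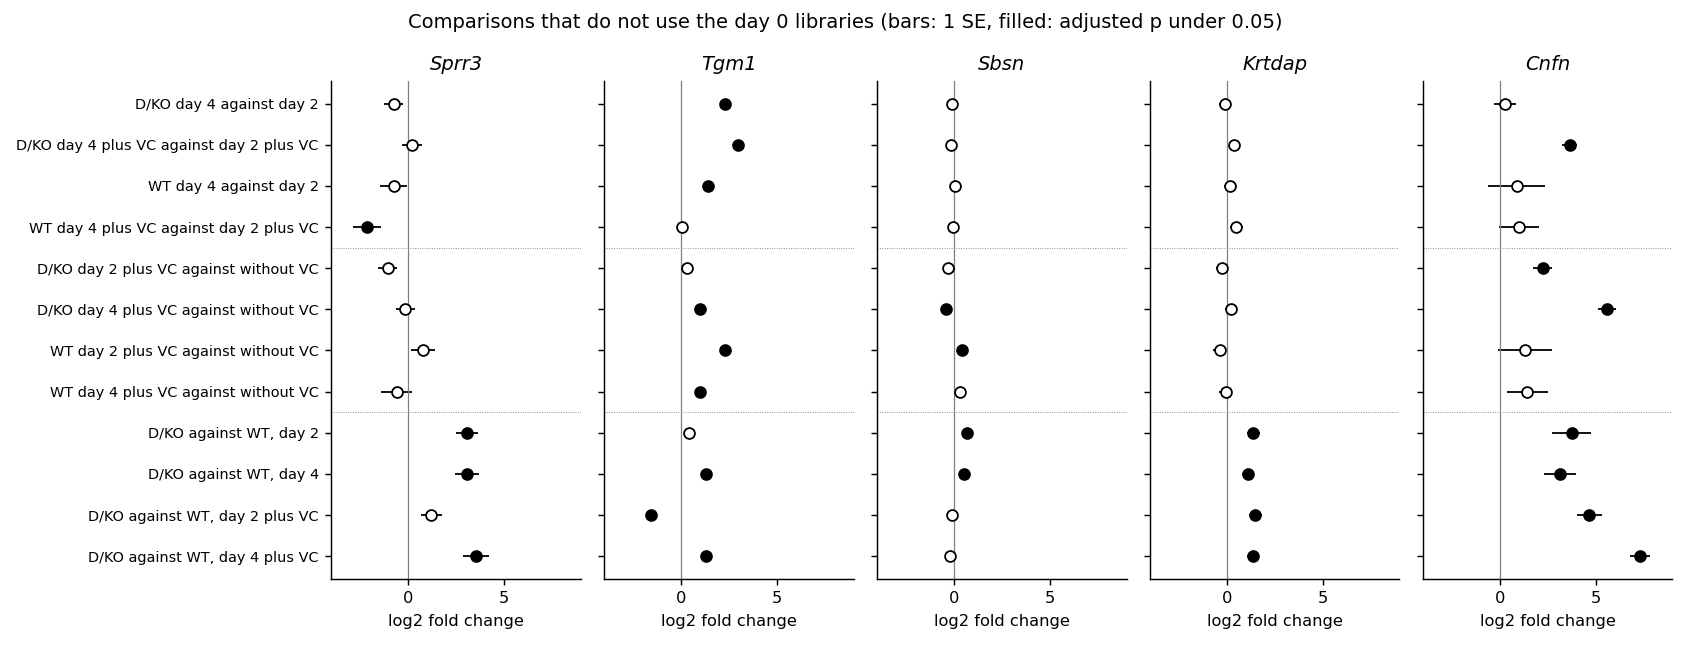
Log2 fold changes of the 5 tested members in the 12 comparisons that do not use day 0, with bars of 1 SE. Filled points passed an adjusted p under 0.05 in edgeR, and open points did not. Cnfn reaches 5.6 with VC at D/KO day 4 and 7.3 for D/KO against WT at day 4 plus VC. For D/KO against WT in VC medium, Tgm1 changes sign between day 2 (-1.58) and day 4 (1.3). Krtdap passes in comparisons of D/KO with WT only.

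Taken by comparison, VC was followed by calls in some members only. Of the 8 members 5 were tested, and the shares of all genes are over the genes tested. At day 0 it gave 1 of 8 higher in D/KO cells (Tgm1, 12.1% of all genes) and in WT cells 1 higher and 1 lower (Tgm1 and Sbsn, 15.1% and 14.4%). At day 2 it gave 1 higher in D/KO cells (Cnfn, 11.1%) and 2 in WT cells (Tgm1 and Sbsn, 13.5%). At day 4 it gave 2 higher and 1 lower in D/KO cells (Cnfn and Tgm1 against Sbsn, 16.8% and 17.7%) and 1 higher in WT cells (Tgm1, 12%). The Sbsn calls were small, from -0.54 to 0.43 on the log2 scale, and each was lost without single libraries. In D/KO cells at day 4 these were replicates 2 and 3 without VC and 1 and 2 with VC (-0.19 to -0.44), in WT cells at day 0 replicate 2 without VC and 2 and 3 with VC (-0.39 to -0.49), and in WT cells at day 2 all but replicate 2 without VC (0.36 to 0.45).

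Between the lines, no member was called at day 0 without VC by edgeR (1 of 8, Tgm1, at an unadjusted p under 0.05, and 0 by DESeq2), against 22.1% of all genes higher and 21.1% lower. Tgm1 lay lower in the D/KO than in the WT libraries there, with no overlap by CPM. It was called lower by edgeR without D/KO replicate 1 (log2 -1.34, adjusted p = 0.0442). D/KO cells were higher in 4 of 8 at day 2 (21.9% of all genes), and in 5 at day 4 (27.0%). In VC medium they were higher in 2 on day 2 (19.9%), where Tgm1 was lower (19.4%), and in 4 on day 4 (26.4%). The change from day 0 was larger in D/KO cells for Tgm1 and Sprr3 at day 4 plus VC (13.9% of all genes higher) and smaller for Sbsn (15.5% lower). At day 2 without VC 0 members were called by edgeR, with 2 (Tgm1 and Sbsn) at an unadjusted p under 0.05 and 0 by DESeq2, against 3.43% of all genes higher and 3.11% lower. For Sprr3 the difference at day 4 plus VC was 5.06 ± 1.37 (adjusted p = 0.00514), with 2 counts in the D/KO and 7 in the WT day 0 group.

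On a scale of CPM per kilobase of exon, which allows genes to be set beside each other, Sbsn led the members in D/KO cells at day 0 (6.2 ± 0.921, SD, n = 3), with every other member at or below 0.367. At D/KO day 4 it was still highest (14.3 ± 2.42), ahead of Krtdap (9.07 ± 0.91), Tgm1 (2.96 ± 0.255) and Sprr3 (1.6 ± 0.302). At D/KO day 4 plus VC Cnfn came first (46.2 ± 12.5), and Sbsn (10.9 ± 3.2) and Krtdap (10.5 ± 3.88) did not differ beyond their spread. In WT cells at day 4 plus VC the order was Sbsn (12.5 ± 0.161), Krtdap (4.07 ± 0.418) and Tgm1 (2.41 ± 0.367), with Cnfn at 0.277 ± 0.242. Across the 12 groups, ordered by mean CPM, the D/KO groups of days 2 and 4 took the 4 highest places for Sprr3, Krtdap and Cnfn. For Krtdap those 4 neighbours overlapped each other. Of their 12 libraries 1, replicate 1 of day 4 plus VC at 4.12 CPM, lay below the highest induced WT library, replicate 2 of day 2 at 4.21 CPM. For Sprr3, D/KO replicate 3 of day 2 plus VC (1.01 CPM) and replicate 2 of day 4 plus VC (1.06) lay below WT replicate 3 of day 2 in VC medium (1.34). For Cnfn, D/KO replicate 2 of day 2 (0.116 CPM) lay below 4 WT libraries in VC medium, the highest at 0.323.

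Related genes of cornification moved in part with the members. Of 43 listed genes of the epidermal differentiation complex only 5 were tested, and at D/KO day 4 plus VC 3 were higher than at day 0 plus VC (Crnn, Sprr2a3 and Sprr2b) and 1 lower (Crct1), where 27.9% of all genes were higher and 26.2% lower. Sprr2b, another small proline-rich precursor, had 60 to 73 counts there and 0 at D/KO day 0. Sprr2 genes are near-identical copies, so their counts are uncertain. Crnn, Sprr2a3 and Sprr2b, near 0 at day 0, passed the filter through induced D/KO groups, so their calls are no independent support. Of 19 transglutaminases and crosslinked partners, 13 were tested and 9 were higher and 2 lower. The higher ones included Tgm3, a further transglutaminase of the envelope, the desmosomal genes Dsp, Pkp1 and Jup, and Evpl, a plakin of the envelope scaffold. The 2 lower ones were Krt10, a suprabasal keratin, and S100a11, the most abundant per kilobase (-0.59 ± 0.25, adjusted p = 0.0423). Next in abundance, S100a10 was higher (1.1 ± 0.17, adjusted p = 6.46e-07) and Anxa1 did not pass (0.09 ± 0.1). Without VC, day 4 against day 0, S100a11 did not pass (-0.43 ± 0.25), and S100a10 (0.83 ± 0.16, adjusted p = 8.86e-05) and Anxa1 (0.44 ± 0.1, adjusted p = 0.000436) were higher.

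Proteases that shed cornified cells were among them. Klk10 and Klk14, secreted serine proteases, reached 87.8 ± 10.8 and 60.8 ± 7.41 CPM at D/KO day 4 plus VC, from 0.196 ± 0.222 and 0 at day 0 plus VC, and 1.05 ± 0.162 and 0.483 ± 0.0986 CPM at WT day 4 plus VC. Klk8, a further protease of this family, was higher (1.51 ± 0.27, adjusted p = 1.17e-05), at 6.87 ± 2.08 CPM from 2.41 ± 0.615. Without VC it held 7.92 ± 1.29 CPM at day 0 and 11.1 ± 0.964 at day 4, which did not pass (0.49 ± 0.23), and it was lower with VC than without it at both days. In that list 8 of 19 were tested, 6 higher and 1, Cdsn, lower. In the list of lipid envelope genes 9 of 15 were tested, 2 higher and 3 lower, shares near those of all genes. Cyp4f39, an enzyme of acylceramide synthesis, was higher (6.28 ± 0.29, adjusted p = 1.92e-17) and Ugcg, the glucosylceramide synthase, was lower (-1.75 ± 0.13, adjusted p = 2.37e-14), and Elovl1, the most abundant of the list per kilobase, did not pass (0.39 ± 0.18). Of 25 transcription factors 20 were tested, and 9 were higher and 4 lower. The higher ones included Klf4 (2.2 ± 0.19, adjusted p = 2.68e-12), which is also a factor of the induced cassette, and Grhl3. The lower ones were Cebpb, Fosl2, Maf and Klf5. Fos was higher (1.21 ± 0.33, adjusted p = 0.0024) and Junb did not pass (0.03 ± 0.19), while without VC both were higher at day 4 (3.47 ± 0.36, adjusted p = 6.62e-10, and 0.7 ± 0.2, adjusted p = 0.00422). Of 18 other barrier genes 9 were tested and 8 were higher, among them Slurp1, a secreted protein of the stratum corneum, at 360 ± 96.8 CPM, and Nccrp1 at 508 ± 79.8 CPM, both at 0 counts in all 6 D/KO day 0 libraries. Crabp2, a retinoic acid binding protein, was higher by 2.56 ± 0.16 (adjusted p = 1.2e-15), from a day 0 level that was lower with VC (26.4 ± 2.28 CPM) than without it (108 ± 22.9). Without VC it was higher by 1.09 ± 0.15 (adjusted p = 3.01e-07).

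With VC against without VC at D/KO day 4, the median log2 fold change was 1.33 over the 5 tested genes of the differentiation complex, 0.869 over the proteases, 0.718 over the crosslinked partners and 1.5 over the other barrier genes, beside 0.345 for lipid genes, 0.446 for transcription factors and 0.00732 over all genes. Listed genes that were near absent at day 0 passed the filter through groups in which they were high. The medians and calls therefore describe the lists and are no independent support. Over the 36 libraries the genes whose log2 CPM followed the mean Z-score of the 5 tested members most closely were Slurp1 (Pearson r = 0.984), Ngef (0.976), Msln (0.973), Urah (0.969), Galr2 (0.966), Paics (0.964), Nccrp1 (0.956), Aqp5 (0.956), Mgst3 (0.954) and Tspan15 (0.954). The list depends on the measure: by Spearman rank correlation Aqp5 came first (0.966), and Msln, Paics, Mgst3 and Tspan15 were not among the closest genes. These libraries share their groups, so the values describe the pattern only. Among the members the correlation was highest between Sbsn and Krtdap (0.827) and lowest between Sbsn and Cnfn (0.419).

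**Figure D3:**
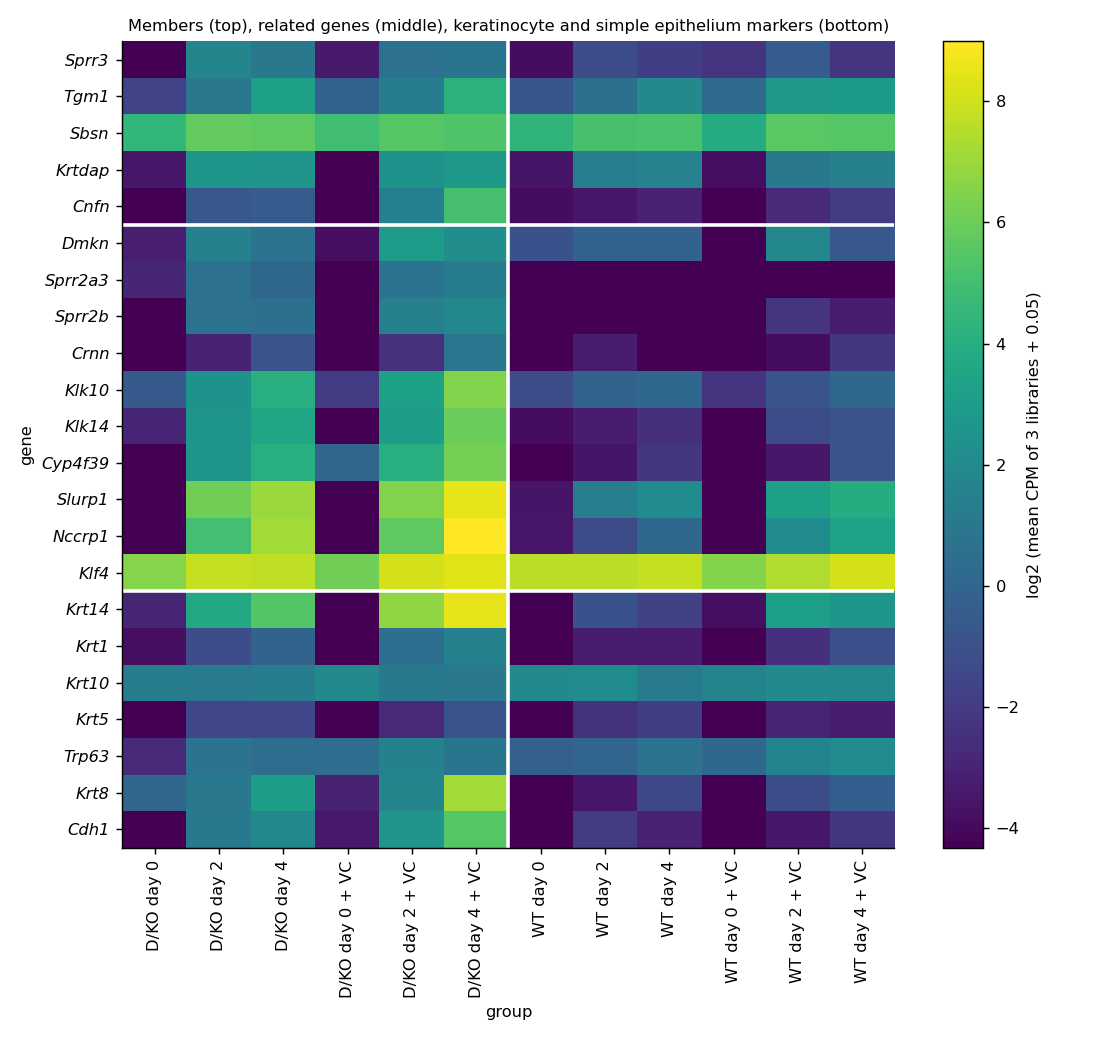
Mean CPM of the 3 libraries of each reprogramming group, as log2 of CPM plus 0.05, for 5 members (top), related genes (middle) and markers of keratinocytes and simple epithelium (bottom). Columns are the 12 groups, D/KO on the left. Krt14, Slurp1 and Nccrp1 reach 367, 360 and 508 CPM at D/KO day 4 plus VC, the column in which Cnfn is highest, while Krt5 stays at or below 0.504 CPM.

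Markers of several cell types moved with some of the same groups. The 6 keratinocyte markers summed to 4.67 to 6.28 CPM in D/KO libraries at day 0 in VC medium and to 293 to 430 by day 4, where 5 of 6 had more than 3 counts and Krt15 was at 0. Nearly all of this was Krt14, with 5416 to 8002 counts in those libraries. Krt1 had 34 to 66 counts there, from 0 at day 0. Krt10, a suprabasal keratin, was called lower, at a mean of 1.99 CPM from 3.96. In plain medium the Krt10 means in D/KO cells were 2.35 CPM at day 0 and 2.48 at day 4. Krt5, the partner of Krt14 in basal keratinocytes, had 5 to 12 counts there and Trp63, the regulator of the basal layer, 18 to 45. In WT cells the sum was 3.81 to 4.61 on day 0 and 14.6 to 16 on day 4 in VC medium. In plain medium it went from 2.12 to 3.35 to 43 to 58.4 in D/KO cells, and in WT cells, where Sprr3, Tgm1, Sbsn and Krtdap were called higher, it was 4.31 to 5.75 on day 0 and 4.04 to 4.82 on day 4. The 6 simple epithelium markers, among them Krt8 and Cdh1, summed to 1.81 to 3.3 and then 247 to 281 CPM in the same D/KO groups, and to 1.77 to 2.15 and 4.95 to 6.74 in WT cells. In plain medium they summed to 10.3 to 15.2 and 19.5 to 26.5 in D/KO cells and to 8.23 to 12.2 and 11.1 to 14.4 in WT cells. The 8 fibroblast markers summed to 176000 to 243000 CPM in those D/KO libraries on day 0 and 24300 to 24900 on day 4, with 7 of 8 lower and 1 higher, and to 148000 to 162000 and 51900 to 61400 in WT cells. In plain medium, from lower day 0 sums, they went from 70300 to 111000 to 28500 to 30300 in D/KO cells and from 46300 to 47700 to 39000 to 40700 in WT cells. In VC medium the 4 endothelial markers went from 180 to 217 CPM to 378 to 509 in D/KO cells and from 4.67 to 7.08 to 98.1 to 116 in WT cells, where on day 4 Kdr was at 0 and Cdh5 and Pecam1 had at most 11 counts, and without VC from 14.4 to 17.2 to 95.3 to 95.7 in WT cells and from 512 to 599 to 302 to 327 in D/KO cells. The 4 muscle markers went from 42.3 to 58.3 CPM to 3.7 to 5.4 in D/KO cells and from 40.3 to 49.1 to 9.88 to 13.2 in WT cells in VC medium, and in plain medium from 33.1 to 79.9 to 35.5 to 44.7 and from 14.1 to 17.4 to 8.78 to 14.4. The 3 Schwann cell markers went in plain medium from 2.65 to 4.63 CPM to 6.58 to 8.09 in D/KO cells. In WT cells they went from 2.26 to 2.71 to 1.33 to 2.23. Leukocyte markers summed on day 0 in plain medium to 1.06 to 1.81 CPM in D/KO and 9.4 to 20.7 in WT cells. The part of all these markers in the rise of the members or in the differences between the lines was not tested.

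Among the inhibitor libraries 5 members passed the filter, Sprr1a, Sprr3, Ivl, Tgm1 and Sbsn, while Krtdap and Cnfn had at most 4 counts and Sprr1b at most 1 in any library. Ivl and Sprr3 passed through the WT 4F libraries, which enter no comparison. Outside them Ivl had at most 11 and Sprr3 at most 7 counts in a library, and neither was tested once the WT 4F and WT skin libraries were left out. The question there was whether 3 days of inhibitors of the TGFβ receptor family change these cells. The 4 inhibitor comparisons share the 3 control libraries. Repsox and A83-01 inhibit ALK5, Vactosertib is described as a dual inhibitor, and DMH-1 inhibits ALK2, a BMP receptor. The labels give no dose. The study states 0.1 µM for Repsox and Vactosertib and 1.0 µM for A83-01 and DMH-1 in its methylation experiment with the same compounds.

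Inhibitors were followed by few calls, each on low counts, in Sprr1a, Tgm1 and Ivl. Sprr1a had 6, 0 and 3 counts in control D/KO cells, 16, 19 and 10 with Repsox, 16, 17 and 8 with Vactosertib, 2, 2 and 9 with A83-01 and 18, 24 and 22 with DMH-1. Repsox, Vactosertib and DMH-1 libraries lay above the controls by CPM, and A83-01 libraries overlapped them. With DMH-1 the log2 fold change was 2.39 ± 0.71 SE (edgeR adjusted p = 0.0428, 1 of 8 members, 4.35% of all genes), a call lost without any 1 of the 6 libraries (1.82 to 3.21). With Repsox (1.91 ± 0.73, adjusted p = 0.0719) and Vactosertib (2.02 ± 0.74, adjusted p = 0.0637) it did not pass, although DESeq2 called it with both, as did edgeR for Vactosertib without the filter (adjusted p = 0.048) and for both without the WT skin and WT 4F libraries.

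Tgm1 was lower with DMH-1. Control D/KO cells held 13, 8 and 6 counts and DMH-1 cells 3, 6 and 0, with no overlap by CPM (-2.01 ± 0.54, adjusted p = 0.0243, 1 of 8 members, 2.9% of all genes), and the call was lost without control replicate 1 or 2 or DMH-1 replicate 1 or 3 (-1.58 to -2.08), and also without the filter on low counts. With the other inhibitors Tgm1 held 8 to 23 counts and did not pass. Involucrin had 4, 7 and 0 counts in control D/KO cells, 0 in all Vactosertib libraries, 1, 0 and 0 with A83-01 and 0, 0 and 1 with DMH-1. It was called lower with Vactosertib and A83-01 (adjusted p = 0.0298, 8.7% of all genes lower, and 0.0452, 13.9% of all genes lower). With DMH-1, at the same total as A83-01, it was not called (adjusted p = 0.106), except without control replicate 3 (0.0468). The groups overlapped, and the calls were lost without control replicate 1 or 2 or a treated library. The adjusted p was then 0.0601 to 0.135 for Vactosertib, lost without any 1 of its libraries, and 0.0863 to 0.235 for A83-01, lost without its replicate 2 or 3. Sbsn was not called with any inhibitor. It lay at 21.7 to 22.7 CPM in control D/KO libraries, 22.2 to 24 with A83-01, 15.5 to 17.8 with Repsox, 13.7 to 23.0 with Vactosertib and 11.1, 12.4 and 19.9 with DMH-1. The DMH-1 and Repsox libraries all lay below the controls. With DMH-1 the log2 fold change was -0.63 ± 0.22 (adjusted p = 0.0931), and it passed without DMH-1 replicate 3 (-0.92, adjusted p = 0.015) and when only the groups compared were fitted. With Repsox no member was called by edgeR (1 at an unadjusted p under 0.05, Sprr1a, and the same gene by DESeq2), against 11% of all genes higher and 9.73% lower.

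The compounds were compared in 2 pairs that the study states at the same dose. A83-01 gave more Tgm1 than DMH-1 (10, 23 and 13 against 3, 6 and 0 counts, log2 2.41 ± 0.51, adjusted p = 0.00149) and more Sbsn (623, 596 and 600 against 354, 387 and 399 counts, 0.68 ± 0.22, adjusted p = 0.0323), and less Sprr1a (-2.24 ± 0.66, adjusted p = 0.0182). That is 2 of 8 members higher and 1 lower, against 9.67% and 10.8% of all genes. Markers of other cell types also differed between these compounds. With A83-01 and DMH-1 the endothelial markers summed to 106 to 143 and 284 to 359 CPM, the fibroblast markers to 35700 to 38000 and 62000 to 80000, and the 3 Schwann cell markers to 30.8 to 38.9 and 10.9 to 13.8. In control D/KO libraries these sums were 240 to 288, 72100 to 78400 and 6.61 to 9.54 CPM. With Repsox they were 146 to 294, 31900 to 41500 and 17.2 to 18.7 CPM. With Vactosertib they were 211 to 276, 42100 to 45700 and 13.7 to 17.6 CPM. The part of these markers in the differences between compounds or from the controls was not tested. The Sprr1a difference was lost without A83-01 replicate 1 or 2 or DMH-1 replicate 3 (-1.91 to -1.99), and the Sbsn difference without any 1 A83-01 library or DMH-1 replicate 1 or 2 (0.52 to 0.7). Repsox and Vactosertib did not differ in a way that passed in any member, with normal 95% intervals of the log2 difference from -1.25 to 1.03 for Sprr1a, from -0.53 to 1.15 for Tgm1 and from -0.61 to 0.25 for Sbsn. For Sprr3 and Ivl the counts were too low to compare these compounds. Sprr3 had 0 counts in all Repsox and 1 over the Vactosertib libraries, and Ivl had 2, 0 and 3 counts with Repsox and 0 in all Vactosertib libraries. Among the members edgeR called 0, with 0 at an unadjusted p under 0.05 and 0 by DESeq2, against 0.0% of all genes.

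Sprr1a and Tgm1 were higher in untreated WT than in untreated D/KO tail tip cells, which also differ in age (14 and 4 weeks), so that genotype and age cannot be told apart. WT tail tip cells held 66, 52 and 52 counts of Sprr1a and 44, 40 and 37 of Tgm1, above all control D/KO libraries (log2 3.86 ± 0.67, adjusted p = 9.96e-05, and 1.83 ± 0.42, adjusted p = 0.00159), and 0 of Ivl (adjusted p = 0.0125, lost without control replicate 2). This is 2 of 8 members higher and 1 lower, against 16.6% and 17.9% of all genes. Keratinocyte markers also differed, summing to 14.7 to 17.6 CPM in WT tail tip and 2.05 to 3.6 in control D/KO libraries, and endothelial markers summed to 57.7 to 75.8 and 240 to 288 CPM. Trp63 held most of the keratinocyte sum in WT tail tip cells (260 to 347 counts), and Krt14 and Krt5 were at 0. The part of these markers in the difference was not tested. WT skin cells held 105, 91 and 47 counts of Sprr1a, 7, 9 and 11 of Ivl and 221, 418 and 253 of Sbsn. Against WT tail tip cells, with 0 counts, Ivl was at least 11-fold higher and was called (1 of 8 members, 18.1% of all genes). It was tested only because the WT 4F libraries were in the fit. With only skin and tail tip libraries it was not among the genes tested, and edgeR without the filter called it (adjusted p = 0.000134). Sbsn was lower in skin (-0.65 ± 0.22, adjusted p = 0.0255, 1 of 8 members, 16.1%), a call lost without skin replicate 1 (-0.45), the library that stood apart, without tail replicate 3 (-0.53), and when only the groups compared were fitted. In skin and tail tip libraries keratinocyte markers summed to 3.09 to 4.29 and 14.7 to 17.6 CPM, simple epithelium markers to 70.1 to 127 and 14.6 to 29.3 CPM, muscle markers to 108 to 143 and 16.1 to 21.3, and endothelial markers to 116 to 209 and 57.7 to 75.8. Their part was not tested.

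**Figure D4:**
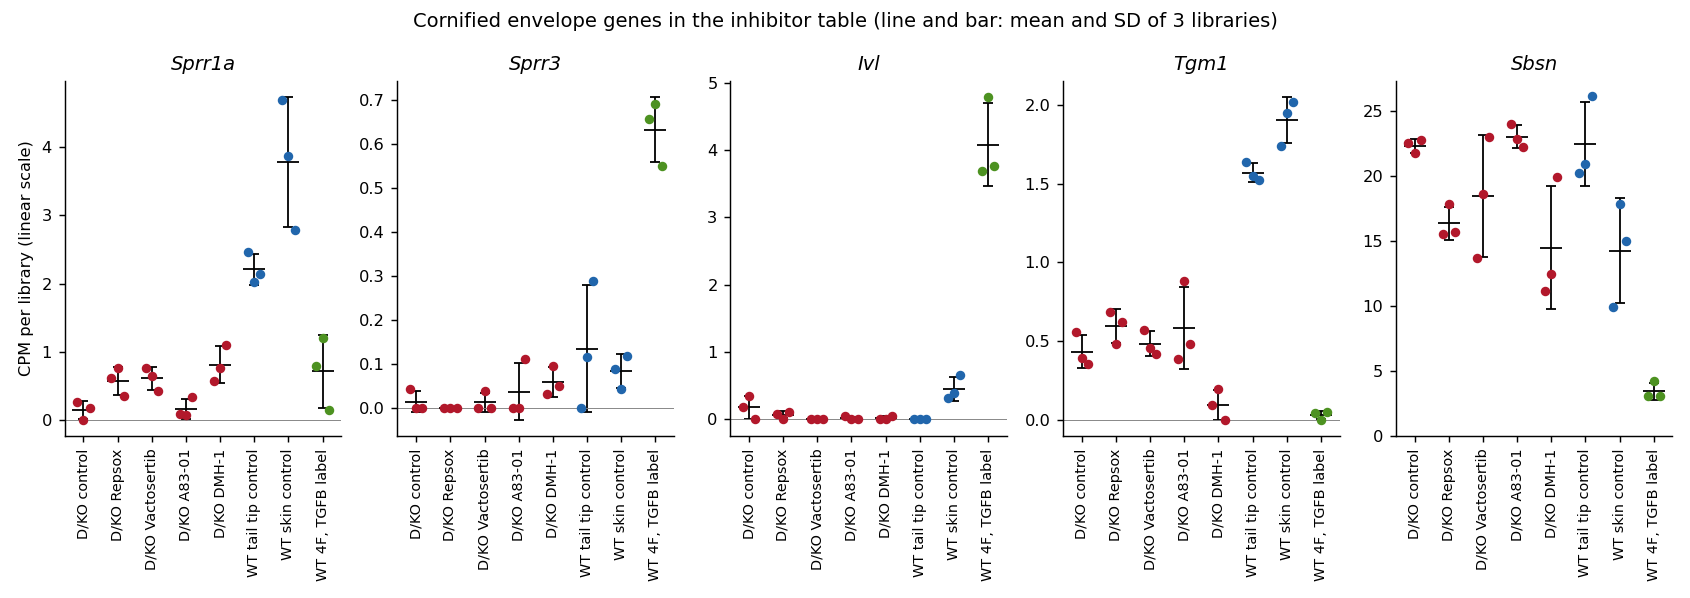
CPM of the 5 members that passed the filter in each of the 24 inhibitor libraries, on linear axes that differ between genes. Points are libraries, and the line and bar give the mean and SD of 3. Sprr1a and Tgm1 are highest in WT tail tip and WT skin controls, and Ivl and Sprr3 are highest in the WT 4F libraries, at means of 4.08 and 0.633 CPM.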

How the data were processed

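Polyadenylated RNA was sequenced as 150-base read pairs. The authors trimmed reads with Trim Galore, aligned them to GRCm39 with HISAT2 and counted them per gene with featureCounts, and deposited raw counts; versions and the strand setting are not given in the sources used here. Gene symbols were taken from GENCODE M39 (56236 of 56980 identifiers matched). Each table was fitted whole in edgeR 4.0.16 (R 4.3.3), with TMM scaling, filterByExpr (minimum count 10, minimum total 15), 1 coefficient per group and the quasi-likelihood test. Calls are at a Benjamini-Hochberg adjusted p under 0.05 over 15832 or 15652 genes. Counts of members are out of 8, of which 5 were tested in either count table. Shares of all genes are over the genes tested, so these denominators differ. Fitted folds are given with their SE. Where a group held 0 counts the fold is a bound at 3 counts over the group, and where it held 1 to 3 the ratio has an exact 95% interval, which covers counting error only. CPM and CPM per kilobase use TMM-scaled library sizes. Promoter windows and motif shares come from GENCODE transcript starts in GRCm39. The fit was also run on simulated counts, in which some genes were changed by set folds from a common mean. That simulation did not model genes absent at day 0, such as Sprr3, Krtdap and Cnfn. The members and gene lists were chosen with earlier results of these data known. Genes named outside the members were the 3 most abundant per kilobase at D/KO day 4 plus VC in each list, the 10 most like the members, and others chosen after their values were seen. Alternatives were DESeq2 1.42.0, other scaling, filters, sample sets and leaving out each library.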

Additional observations from a re-analysis of the deposited data

Results flagged for a closer look

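The change from day 0 differed between D/KO and WT cells in 5 tests of the difference itself. For Tgm1 it was larger in D/KO cells by 2.3 on the log2 scale at day 4 and by 1.81 at day 4 plus VC. For Sprr3 it was larger by 5.06 at day 4 plus VC. For Sbsn it was, under VC, -1.16 by day 2 and -1.26 by day 4, so smaller in D/KO cells. Line, genotype, sex and age cannot be told apart in these differences.

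The cells of the 4FJ_(+/-)_OCT4-GFP line labelled TGFB entered no comparison of the inhibitor table. They held 84, 104 and 82 counts of Ivl, at a mean of 4.08 CPM, and 15, 15 and 12 counts of Sprr3, at 0.633 CPM. Both were above every other group of that table, where Ivl had at most 11 and Sprr3 at most 7 counts in a library. Tgm1 had 1, 0 and 1 counts and Sbsn 70, 91 and 66, below every other group by CPM for Sbsn. The labels do not say what the treatment was, and the muscle markers summed to 1710 to 2060 CPM in these libraries. Their part was not tested.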

How the results depend on the processing

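No call changed direction under any alternative run. Changes of sign between values that passed in neither run were not counted. No paired analysis was possible because the labels number the libraries serially and share no replicate number between groups. Against day 0, members called lower went from 0 to 1 without the expression filter and with DESeq2. For day 4 against day 2 the 1 lower call became 0 when only the groups compared were fitted. For VC the 2 lower calls became 1 with DESeq2 and 0 when calls also needed a log2 fold change of size 1 or more. For the inhibitors the 1 higher call became 2 without the filter, 3 with 18 libraries and 3 with DESeq2, and the 3 lower calls became 1 with 18 libraries, where Ivl was not tested. For the control groups the 2 lower calls became 0 with only the groups compared, 1 with 18 libraries and 1 with that size limit, with which the 2 higher calls between compounds became 1. The 18 libraries leave out WT skin and WT 4F cells.

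Leaving out each library in turn gave 34 to 36 higher and 0 to 0 lower calls against day 0, 4 to 4 and 0 to 1 for day 4 against day 2, 7 to 9 and 1 to 2 for VC, 15 to 17 and 1 to 2 for D/KO against WT, and 3 to 4 and 2 to 3 for the change between lines. It gave 0 to 1 and 0 to 4 for the inhibitors, 3 to 4 and 1 to 2 for the control groups and 1 to 2 and 0 to 1 between compounds. Per gene and comparison, 70 of these values lost and 9 gained a call, and 1121 kept their side of the threshold. Depth limits Sprr1a, Sprr1b and Ivl in the reprogramming table and all members but Sbsn in the inhibitor table.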
